A study of Homo sapiens with 4 samples.

Results

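The chemokine genes CXCL1, CXCL2, CXCL3, CXCL5, CXCL6, CXCL8, CCL2 and CCL20 were examined through all 16 array probe sets annotated to exactly 1 of these 8 symbols. The 8 genes were among 18132 genes with such a probe set. The cells were of A549, a long-established line from a human lung adenocarcinoma, and were given 25 μmol/L dihydroberberine plus 2 μmol/L sunitinib (the combination), 25 μmol/L dihydroberberine alone, 2 μmol/L sunitinib alone, or neither (untreated), each for 48 h after plating. All 4 groups were the same unmodified line in RPMI-1640 with serum, and each was measured on 1 array. Dihydroberberine derives from berberine, a plant alkaloid, by reduction, and sunitinib inhibits receptor tyrosine kinases such as those for VEGF and PDGF. With 1 array per group no difference has a replicate check, no test was run, and "higher" or "lower" compares single arrays.

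Chemokines are small secreted proteins that attract leukocytes along a gradient. CXCL1, CXCL2, CXCL3, CXCL5, CXCL6 and CXCL8 form the branch that recruits neutrophils through the receptors CXCR1 and CXCR2, CCL2 recruits monocytes through CCR2, and CCL20 recruits CCR6-bearing lymphocytes and dendritic cells. Epithelial cells make them after interleukin 1 or TNF, through NF-kB with AP-1 and C/EBP factors, and their short-lived mRNAs are targets of proteins that bind AU-rich elements.

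The promoters were read first, because the 6 CXCL genes share a sequence motif there although the measured ones did not all follow the same order over the 4 arrays. RefSeq promoter sequences (GRCh38.p14) were held for 7 of the 8 genes. In the gene order of chromosome 4, the 6 CXCL members lay within a run of 9 protein-coding genes, CXCL8, CXCL6, PF4V1, CXCL1, PF4, PPBP, CXCL5, CXCL3 and CXCL2. In the 250 bases before each start, the longest stretch of letters that all 6 CXCL promoters share was GGAATTTCC, a form of the NF-kB motif, found on either strand in 0.413% of the 35116 promoters of the table. CXCL1, CXCL2, CXCL3, CXCL5 and CXCL6 share a longer run around it, GGGAATTTCCC, found in 0.0769% of promoters, and within it the 10-letter NF-kB consensus was matched on both strands. Both stretches were picked because these promoters share them, so the shares over all promoters are no test of the members. In CXCL8 the shared letters lie from 91 to 83 bases before the start, and the consensus was not matched in the window. The lines below give the shared letters in capitals with 20 bases on either side, each read 5′ to 3′ along its gene.
CXCL1 (chr4:73869295-73869343, + strand): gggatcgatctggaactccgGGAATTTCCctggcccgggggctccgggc
CXCL2 (chr4:74099244-74099292, - strand): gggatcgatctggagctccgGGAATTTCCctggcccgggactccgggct
CXCL3 (chr4:74038739-74038787, - strand): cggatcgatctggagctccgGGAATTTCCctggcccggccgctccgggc
CXCL5 (chr4:73998739-73998787, - strand): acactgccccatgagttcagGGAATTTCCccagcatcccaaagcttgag
CXCL6 (chr4:73836569-73836617, + strand): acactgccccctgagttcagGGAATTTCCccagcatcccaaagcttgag
CXCL8 (chr4:73740458-73740506, + strand): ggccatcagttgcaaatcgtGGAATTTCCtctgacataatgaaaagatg
The windows fell into 3 kinds, and the whole 250 bases did likewise. CXCL1 and CXCL3 were identical at 81.4% of aligned columns, CXCL2 with CXCL1 and CXCL3 at 70.4% and 73.3%, and CXCL5 with CXCL6 at 85.3%. CXCL8 was identical with the other CXCL promoters at 42.0% to 45.4%.

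The CXCL8 and CCL20 promoters are given whole up to the start, since CXCL8 had the widest range over the 4 arrays of the 8 genes and CCL20 is the CC member with signal. In CXCL8 the capitals mark the AP-1 letters TGANTCA, 137 to 131 bases before the start, and the letters shared with the other CXCL promoters. It was the 1 promoter of the 7 with the AP-1 letters, which 6.57% of all promoters hold on either strand. In CCL20 the capitals mark the 1 match to the 10-letter NF-kB consensus, on the opposite strand from 79 to 70 bases before the start, and 9.96% of all promoters hold such a match. A match is a description of letters and not a measured binding site.
CXCL8 (chr4:73740319-73740568, + strand): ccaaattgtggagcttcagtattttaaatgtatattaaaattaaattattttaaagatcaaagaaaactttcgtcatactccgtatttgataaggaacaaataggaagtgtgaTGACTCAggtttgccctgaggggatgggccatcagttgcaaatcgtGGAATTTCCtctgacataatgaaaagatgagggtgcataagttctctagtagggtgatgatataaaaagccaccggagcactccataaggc
CCL20 (chr2:227813592-227813841, + strand): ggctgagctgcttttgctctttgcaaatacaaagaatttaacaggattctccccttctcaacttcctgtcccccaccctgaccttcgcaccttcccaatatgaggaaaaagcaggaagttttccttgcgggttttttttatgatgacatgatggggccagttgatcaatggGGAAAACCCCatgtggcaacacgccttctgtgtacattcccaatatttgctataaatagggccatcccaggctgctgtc

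The deposited values are log2 signals. Their median over all gene probe sets was 6.75, and this was used as a floor below which a probe set was called dim. The arrays correlated across gene probe sets with r between 0.986 and 0.994. The dihydroberberine array stood somewhat apart. Its small-subunit ribosomal RNA control probe sets differed from untreated by -0.63 on the log2 scale, against -0.21 for the combination and -0.24 for sunitinib, and its Alu control by -0.41, against 0.03 and 0.03. Each drug was therefore read from 2 pairs of arrays with no array in common, and the pair of combination and sunitinib gives the dihydroberberine difference without that array. How the authors scaled the arrays to each other is not given in the sources used here.

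Of the 16 probe sets, 13 lay above the floor on all 4 arrays and 3 lay under it on all 4. The dim ones were both CXCL6 probe sets and the CCL2 probe set, so CXCL1, CXCL2, CXCL3, CXCL5, CXCL8 and CCL20 were measured and CXCL6 and CCL2 were not. CXCL6 signals were 3.53, 3.83, 3.70 and 3.62 in the first probe set and 3.97, 3.92, 3.97 and 3.90 in the other, for combination, dihydroberberine, sunitinib and untreated cells. CCL2 signals were 4.33, 4.70, 4.44 and 4.85 in the same order. The medians of the array's 23 background probe sets were 4.03, 4.12, 4.08 and 3.98 in that order, and all CCL2 values lay above them. Single background probe sets ran widely, from 3.31 to 11.70 on the untreated array, and CCL2 lay within their range on every array. Lying above the median is therefore not a detection of CCL2. Both genes were under the floor on every array, so no fold is given for either. CXCL6 was dim although its promoter is the one most like that of CXCL5, which was well above the floor.

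**Figure D1:**
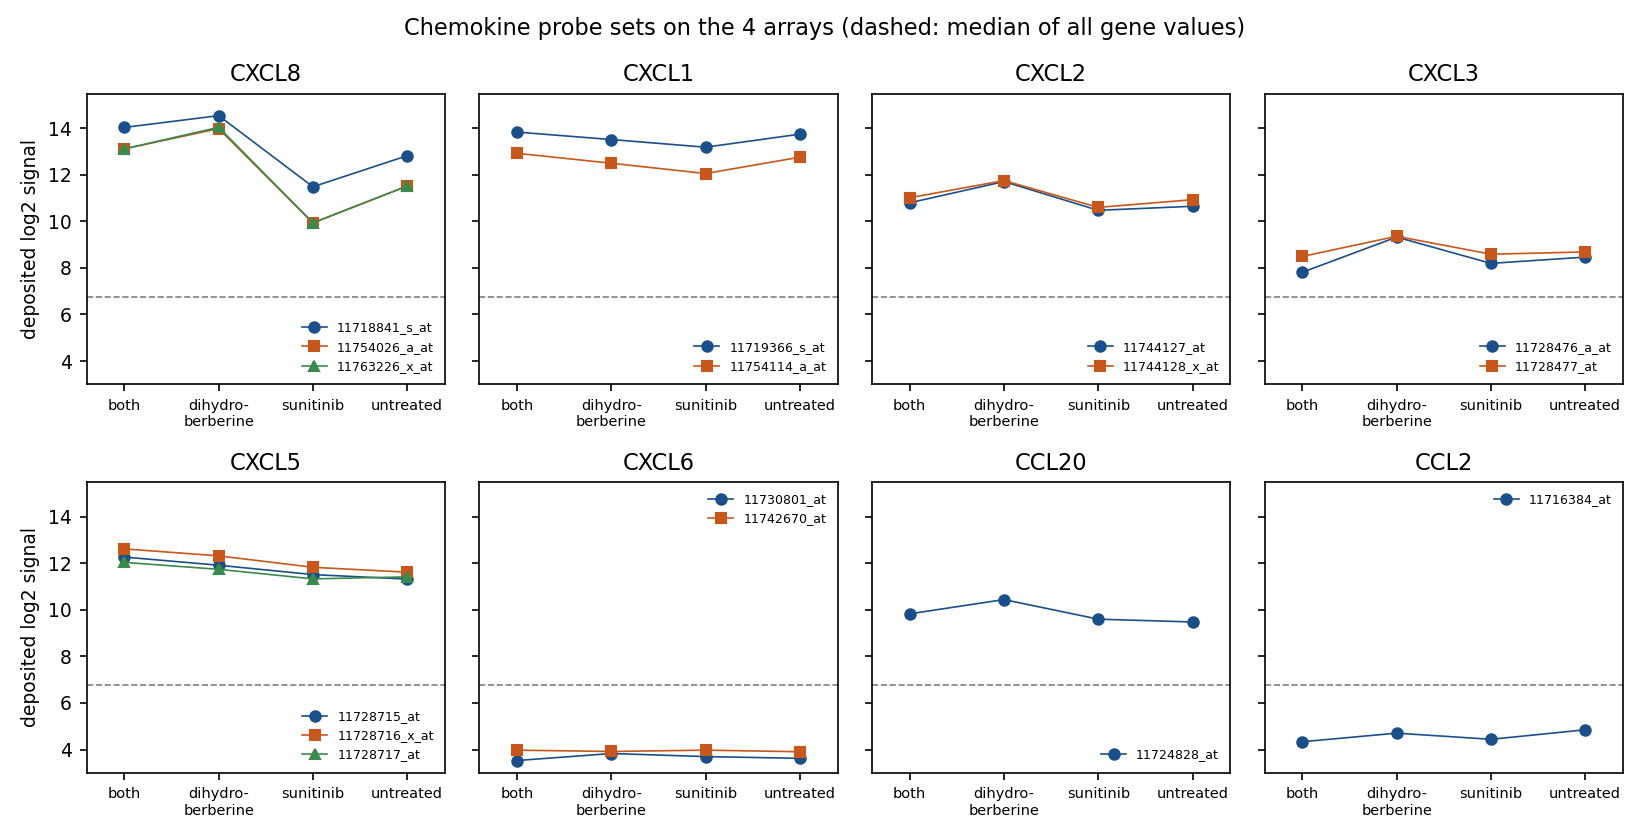
Deposited log2 signal (vertical axis) of each chemokine probe set on the arrays of cells given both drugs, dihydroberberine or sunitinib, and of untreated cells; lines join the values of 1 probe set, and the dashed line is the median of all gene values, 6.75. CXCL8 spans the widest range, CXCL1 is lowest with sunitinib, CXCL2, CXCL3 and CCL20 are highest with dihydroberberine alone, CXCL5 is highest with both, and CXCL6 and CCL2 stay under the line.

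CXCL8, the neutrophil chemokine also called interleukin 8, was the member that differed most between arrays. Its brightest probe set read 14.04 with the combination, 14.55 with dihydroberberine, 11.49 with sunitinib and 12.83 in untreated cells. The other probe sets read 13.12, 13.99, 9.93 and 11.52, and 13.12, 14.05, 9.94 and 11.52, in that order. All 3 probe sets gave the same order, with dihydroberberine highest, the combination next, then untreated, and sunitinib lowest. The dimmer ones are annotated to the same source sequence and read almost alike, so they are not independent readings. Both CXCL2, both CXCL3 and some of the CXCL5 probe sets also share a source sequence.

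For CXCL8, dihydroberberine against untreated was a log2 difference of 1.72 in the brightest probe set and of 2.47 and 2.53 in the others, or 3.30-fold, 5.53-fold and 5.76-fold higher. The combination against sunitinib gave 2.55, 3.19 and 3.17, or 5.87-fold, 9.12-fold and 9.03-fold higher. In the brightest probe set this was the highest difference of all 10958 genes measured, and dihydroberberine against untreated ranked 14 of 10958. Sunitinib was lower than untreated by -1.34, -1.59 and -1.58 on the log2 scale, which ranked 14 from the bottom. The combination was lower than dihydroberberine alone by -0.50, -0.87 and -0.93, a difference under 2-fold in every probe set. The combination still stood above untreated, at 1.22, 1.60 and 1.60. The difference with sunitinib was thus smaller where dihydroberberine was present. The departure from adding the single-drug differences was 0.83 in the brightest probe set and 0.72 and 0.65 in the others. The middle 90% of genes ran from -0.48 to 0.84. The brightest probe set gave the smallest of the 3 differences in each of the 5 comparisons.

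CXCL1, CXCL2 and CXCL3 encode the closely related GRO chemokines, and probe sets of such similar transcripts may share signal. By Affymetrix naming, a name ending in _x_at or _s_at marks probes that may match more than 1 transcript. Among the CXCL8 probe sets the brightest ends in _s_at and another in _x_at. The brightest CXCL1 probe set, which stood for that gene in the counts, also ends in _s_at. CXCL1 read 13.84 with the combination, 13.52 with dihydroberberine, 13.19 with sunitinib and 13.75 untreated in its brightest probe set, and 12.93, 12.50, 12.06 and 12.76 in the other. Both probe sets were highest with the combination and lowest with sunitinib. CXCL1 with dihydroberberine was -0.23 and -0.26 from untreated, whereas the combination was 0.65 and 0.87 above sunitinib, or 1.57-fold and 1.83-fold higher. Sunitinib against untreated was -0.56 and -0.70, and the combination against dihydroberberine 0.32 and 0.43. CXCL1 was therefore the 1 measured member without a positive difference for dihydroberberine alone, and for each drug its sign turned with the other drug present.

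CXCL2 had a different order from CXCL1. It read 11.02 with the combination, 11.76 with dihydroberberine, 10.60 with sunitinib and 10.94 untreated in the _x_at probe set, and 10.80, 11.71, 10.48 and 10.65 in the _at probe set. In both, dihydroberberine alone stood above the other 3 arrays, which lay close together. The log2 difference from untreated was 0.82 and 1.06, or 1.77-fold and 2.09-fold higher, so the side of 2-fold depended on the probe set. In the combination against sunitinib it was 0.42 and 0.32, or 1.33-fold and 1.25-fold. Sunitinib against untreated gave -0.33 and -0.17, and the combination against dihydroberberine -0.74 and -0.91.

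CXCL3 was again highest with dihydroberberine alone, but lowest with the combination. It read 8.50 with the combination, 9.36 with dihydroberberine, 8.59 with sunitinib and 8.69 untreated in its brighter probe set, and 7.82, 9.33, 8.20 and 8.47 in the other. Dihydroberberine was 0.67 and 0.86 above untreated, or 1.60-fold and 1.82-fold. The combination differed from sunitinib by -0.10 and -0.38, so the sign found without sunitinib was not found with it. The combination was below dihydroberberine by -0.87 and -1.51, or 1.82-fold and 2.85-fold lower, and the brighter probe set ranked 68 from the bottom of 10958 genes. The probe sets disagreed most in that comparison, with an SD of 0.45 on the log2 scale, where the median SD over the 5563 genes with several bright probe sets was 0.12.

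CXCL5, also a neutrophil chemokine, was highest with both drugs. Its _x_at probe set read 12.63 with the combination, 12.32 with dihydroberberine, 11.83 with sunitinib and 11.62 untreated. One _at probe set read 12.27, 11.92, 11.52 and 11.33, and the other 12.04, 11.75, 11.33 and 11.42. The combination was 2.00-fold, 1.93-fold and 1.54-fold above untreated, and so sat at the 2-fold line in 1 probe set and under it in the others. Dihydroberberine against untreated gave 0.70, 0.60 and 0.32, and the combination against sunitinib 0.79, 0.75 and 0.71. The dihydroberberine difference was thus of one sign in both pairs of arrays and under 2-fold in each. Sunitinib against untreated was 0.21, 0.19 and -0.09, so its sign varied between probe sets, and the combination against dihydroberberine was 0.30, 0.35 and 0.30. In the _x_at probe set the departure from additivity was 0.09, and in the others it was 0.16 and 0.39. By the brightest probe set of each gene, that of CXCL5 was the smallest among the measured members.

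CCL20, which attracts CCR6-bearing cells, had 1 probe set. It read 9.83 with the combination, 10.45 with dihydroberberine, 9.60 with sunitinib and 9.48 untreated. Dihydroberberine alone was highest, and the other arrays lay within a narrow range. It was 0.96 above untreated, or 1.95-fold higher, and 1.07 after quantile normalization of the arrays. The combination was 0.23 above sunitinib, or 1.17-fold, and 0.61 on the log2 scale below dihydroberberine alone (a difference of -0.61). Sunitinib was 0.12 above untreated.

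**Figure D2:**
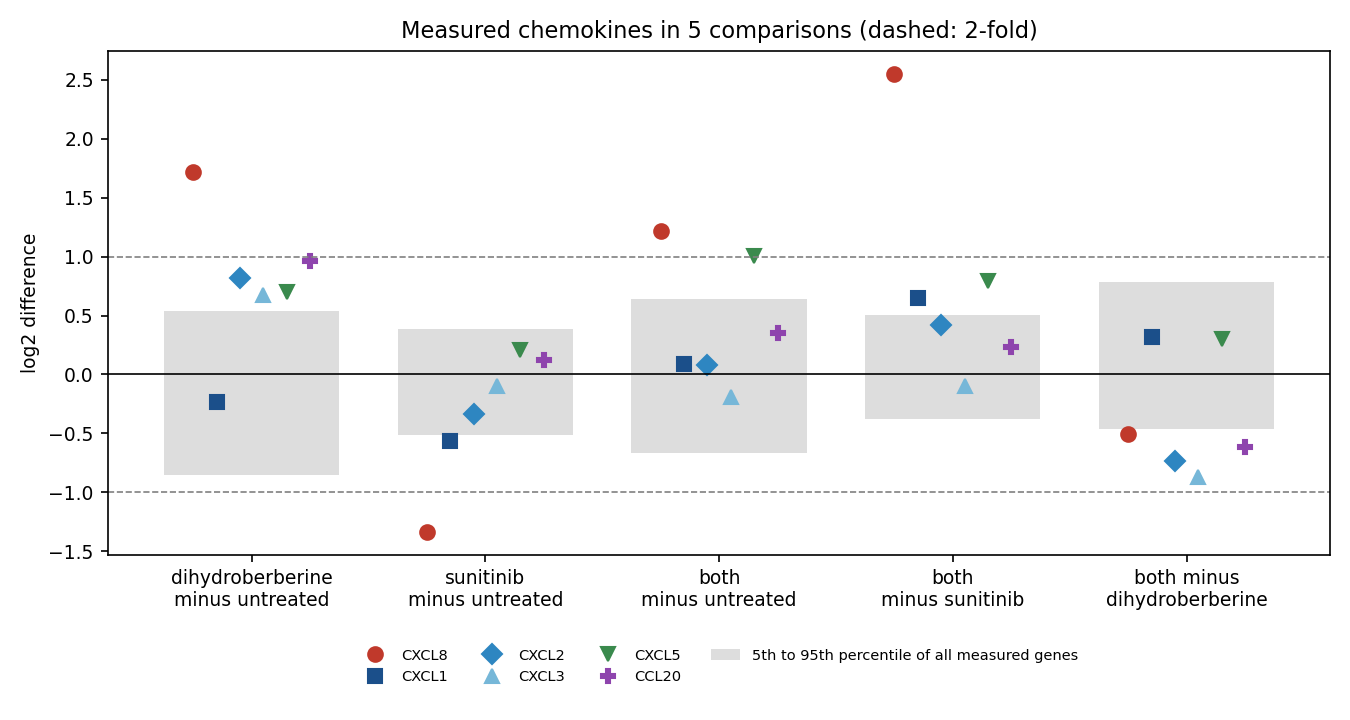
Log2 difference (vertical axis) of the 6 measured chemokines in 5 comparisons, 1 point a gene from its brightest probe set; grey bars span the 5th to 95th percentile of all 10958 measured genes and dashed lines mark 2-fold. CXCL8 lies outside the bars in all 5 comparisons, and 5 of the 6 genes lie above the bar for dihydroberberine minus untreated.

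For counts, the probe set with the highest mean stood for its gene, a gene under the floor on all arrays was left out, and an array under the floor was raised to it. Dihydroberberine against untreated had 1 of the 8 members, CXCL8, at least 2-fold higher and 0 lower, with CXCL6 and CCL2 dim. Over all 10958 measured genes 0.849% were at least 2-fold higher (93 genes) and 3.08% lower (338 genes), or 122 and 249 genes after quantile normalization. At 1.5-fold the count was 5 of 8, CXCL2, CXCL3, CXCL5, CXCL8 and CCL20, where 4.1% of all genes were higher, and 0 were lower, where 11.7% were. The median over the 6 measured members was 0.76, and that over all measured genes -0.02. Markers of other cell types were read beside this count. Of 18 such markers 13 were dim on all 4 arrays, among them PTPRC, the pan-leukocyte antigen, at 3.81 to 3.92, and ITGAM, a myeloid integrin, at 5.16 to 5.20. CD14, a monocyte receptor, read 5.76 with the combination, 6.75 with dihydroberberine, 6.27 with sunitinib and 8.82 untreated, and CD68 7.06, 8.42, 7.33 and 8.16. VWF, an endothelial marker, read 7.28, 7.50, 7.39 and 7.29 in the same order, and CSF1R, a myeloid marker, lay close to the floor. The summed linear signal of the 17 markers on the array was 958 with the combination, 1304 with dihydroberberine, 1086 with sunitinib and 1550 untreated. The highest value, in untreated cells, rests on CD14, which lay under the floor on the other 3 arrays. The sum also includes the markers dim on every array, and its part in the chemokine differences was not tested. In such bulk RNA fewer cells of a type and less RNA per cell cannot be told apart.

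The combination against sunitinib had 1 of 8 members at least 2-fold higher, CXCL8, where 0.584% of all genes were higher, and 0 lower, where 0.0821% were. At 1.5-fold CXCL1, CXCL5 and CXCL8 were higher, where 3.23% of all genes were, and 0 lower, where 1.28% were. The median over the measured members was 0.53, and that of all genes 0.00. Between the pairs of arrays that give the dihydroberberine difference, CXCL8 and CXCL5 were positive in both and larger in the combination against sunitinib in every probe set, CXCL2 and CCL20 kept their sign with a smaller value, CXCL3 lost its sign and CXCL1 changed the other way.

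**Figure D3:**
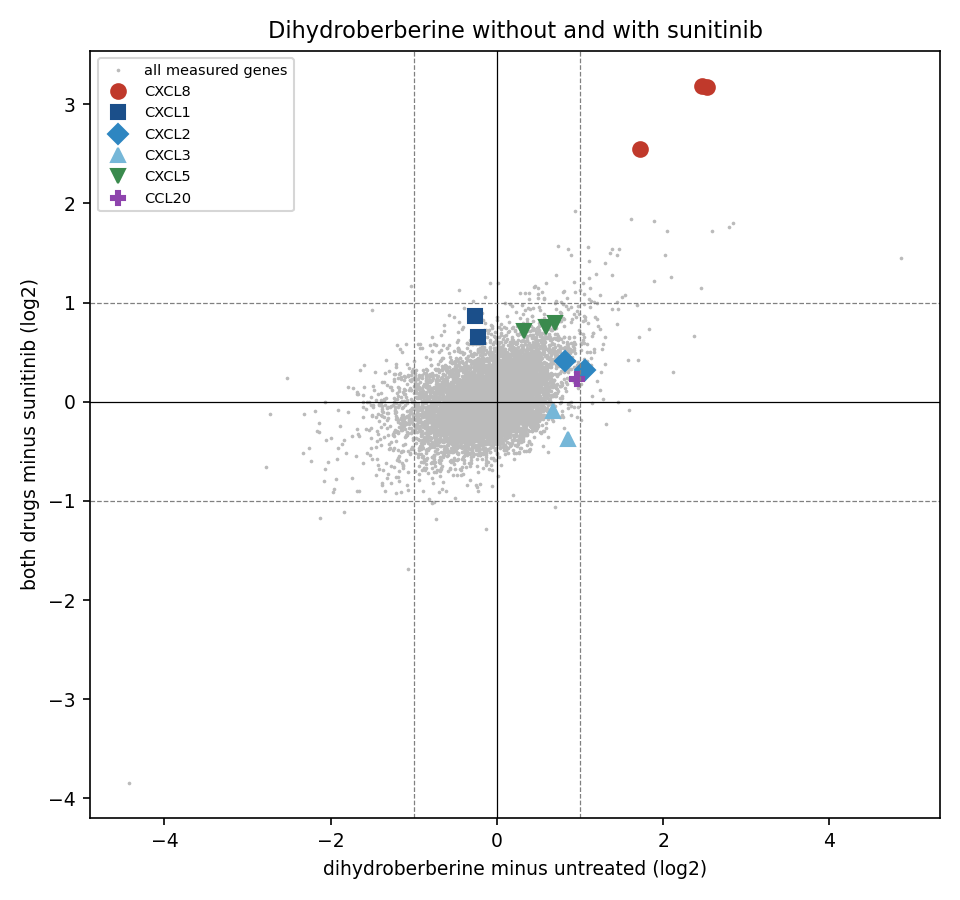
Log2 difference for dihydroberberine without sunitinib (horizontal axis, dihydroberberine minus untreated) and with it (vertical axis, both drugs minus sunitinib) for all measured genes (grey) and for each probe set of the measured chemokines (coloured). The 3 CXCL8 probe sets lie at 1.72 to 2.53 and 2.55 to 3.19, apart from the other chemokines, CXCL1 lies left of 0 and above 0, and CXCL3 lies right of 0 and below 0.

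Sunitinib against untreated had 0 of 8 members at least 2-fold higher, where 0.128% of all genes were, and 1 lower, CXCL8, where 0.429% were. At 1.5-fold these counts were the same, beside 1.1% of all genes higher and 3.39% lower. The median over the measured members was -0.21, and that of all genes -0.03. The combination against dihydroberberine had 0 members past 2-fold in either direction, where 2.42% of genes were higher and 0.365% lower. At 1.5-fold it had 3 lower, CXCL2, CXCL3 and CCL20, where 2.34% of genes were, and 0 higher, where 9.46% were. Its median over the measured members was -0.56, and that of all genes 0.00. The combination against untreated had 2 members higher, CXCL5 and CXCL8, where 0.885% of genes were, and 0 lower, where 1.33% were. The counts were the same at 1.5-fold, beside 6.26% and 6.66% of genes. CXCL5 was at 0.98 with the arrays centred on their medians and at 0.86 with the mean of its probe sets, both under 2-fold.

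The likeness of patterns was measured as the Euclidean distance between the 4 log2 values of 2 genes after each gene's own mean was subtracted. CXCL2 and CCL20, on different chromosomes, were the closest members at 0.33, followed by CXCL2 and CXCL3 at 0.38 and CXCL3 and CCL20 at 0.39. CXCL1, whose promoter is most like those of CXCL2 and CXCL3, was 0.87 and 0.91 from them. CXCL8 was between 1.68 and 2.09 from every other measured member. The distance depends on the size of the differences as well as on their order. In order over the 4 arrays, all CXCL8 and CXCL2 probe sets were the same. Among 9825 other genes above the floor on all arrays, those nearest to CXCL8 were PTX3, a secreted pentraxin, at 0.78, DAW1, an axonemal dynein assembly factor, at 0.87, PAPPA, a secreted protease of IGF-binding proteins, at 0.94, DUSP1, a MAP kinase phosphatase, at 0.96, and DUSP5, a phosphatase of ERK, at 0.97. Those nearest to CXCL1 were ZEB2, a zinc finger repressor, at 0.09, WWC2 at 0.09, DSE, a dermatan sulfate epimerase, at 0.09, SEC14L1 at 0.10 and TMEM131 at 0.11. These are distances over 4 arrays. A flat pattern such as that of CXCL1 has close neighbours more easily than the wide one of CXCL8.

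The main signalling receptors of these chemokines were dim. Of 22 chemokine receptors 20 were on the array, and CXCR1, CXCR2, CCR2 and CCR6, which bind the 8 chemokines, were among those under the floor on all 4 arrays. The 4 measured receptors, CXCR3, CXCR5, CCR10 and the decoy receptor ACKR1, were close to the floor, and none passed 2-fold in any of the 5 comparisons. ACKR1 was under the floor on 3 arrays. CXCR3 had the highest difference of the list for dihydroberberine against untreated, at 0.46, and its value was 0.26 for sunitinib.

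Of 29 other chemokines 27 were on the array and 5 were measured, again with none past 2-fold in any comparison. CXCL16, a transmembrane chemokine for CXCR6, read 8.36 with the combination, 8.12 with dihydroberberine, 8.41 with sunitinib and 8.94 untreated. Its difference from untreated with dihydroberberine, -0.82, was opposite in sign to that of CXCL8, but a further CXCL16 probe set gave -0.04. CCL22, a ligand of CCR4, was 0.39 above untreated with either drug alone and 0.38 with both. CX3CL1, CCL17 and CCL25 lay close to the floor. PF4V1, PF4 and PPBP, the platelet chemokine genes that lie between the CXCL members on chromosome 4, were dim on all arrays.

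Of 22 cytokines, receptors and adaptors that induce these chemokines, 10 were measured, and 1 was at least 2-fold higher with dihydroberberine than untreated and 0 lower, beside 0.849% and 3.08% of all genes. That gene was IL1A, interleukin 1 alpha, which read 8.81 with the combination, 8.97 with dihydroberberine, 7.33 with sunitinib and 6.95 untreated. IL1A and CXCL8 both stood high on the combination and dihydroberberine arrays, while with sunitinib alone IL1A was 0.38 above untreated and CXCL8 below it. IL1RAP, the accessory chain of the interleukin 1 receptor, was 0.71 above untreated with dihydroberberine and 0.84 above sunitinib in the combination. IL1R1, the receptor's ligand-binding chain, was -0.53 from untreated with dihydroberberine and -0.59 with sunitinib, and IL17RA, a receptor chain for interleukin 17, was -0.73 with dihydroberberine, where that array lay under the floor. TNFRSF1A, the main TNF receptor, was -0.37 with sunitinib, and LTA, lymphotoxin alpha, lay close to the floor. TNF and IL1B themselves were dim.

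All 23 NF-kB, AP-1 and C/EBP factors of the list were measured. With dihydroberberine against untreated 2 were at least 2-fold higher and 0 lower, beside 0.849% and 3.08% of all genes, and the median was 0.07. Both were AP-1 subunits. FOSL1 was 2.46 above untreated on the log2 scale and 1.14 above sunitinib in the combination, and JUN 1.71 and 0.65, though a further JUN probe set gave 0.81 against untreated. JUNB, another AP-1 subunit, was at 0.79 and 0.61, and RELB, an NF-kB subunit, at 0.77 and 0.31. CEBPD, a C/EBP factor, went the other way, at -0.69 and -0.14. Over its 5 probe sets it ran from -0.75 to -0.48 for dihydroberberine against untreated. Of the 23 factors 14 had a positive difference in that comparison and 8 a negative one. The combination against sunitinib had 2 of the 23 at least 2-fold higher, beside 0.584% of all genes, and 0 lower. These were FOSL1 and FOSL2, a further AP-1 subunit, at 1.02, and in both genes another probe set was under 2-fold, with the lowest at 0.68 and 0.57. The combination against dihydroberberine had 1 higher, IKBKB, a kinase that activates NF-kB, at 1.16, and 1 lower, JUN, at -1.18, beside 2.42% and 0.365% of all genes. Over the probe sets IKBKB ran down to -0.23 and JUN up to 0.04. FOSL2 and IKBKB were named after their values were seen. With sunitinib against untreated 0 of the 23 were past 2-fold in either direction, beside 0.128% of all genes higher and 0.429% lower. The lowest values there were those of CEBPD at -0.82 and BCL3, a nuclear IkB protein, at -0.81.

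Genes of AU-rich mRNA decay and stability were mostly lower on the dihydroberberine array. Of 12 measured, 2 had a positive difference from untreated and 10 a negative one, where 46.1% of all genes had a positive one. At least 2-fold, 1 was higher and 2 were lower, beside 0.849% and 3.08% of all genes, and the median was -0.68, beside -0.02 for all genes. RC3H1, the mRNA decay factor roquin, was lower by 2.63-fold and ZFP36L2, a decay factor of the tristetraprolin family, by 2.31-fold. ZFP36, tristetraprolin itself, was 2.20-fold higher. ELAVL1, the stabilizing protein HuR, differed by -0.99 and KHSRP, a decay factor, by -0.95. These lower values were not found in the combination against sunitinib, where RC3H1 was -0.13, ZFP36L2 0.03, ELAVL1 -0.02, KHSRP -0.17 and the median of the list 0.08, while ZFP36 was 0.66. ZFP36L1, another member of that family, was -0.66 with sunitinib against untreated and 1.05 in the combination against sunitinib.

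**Figure D4:**
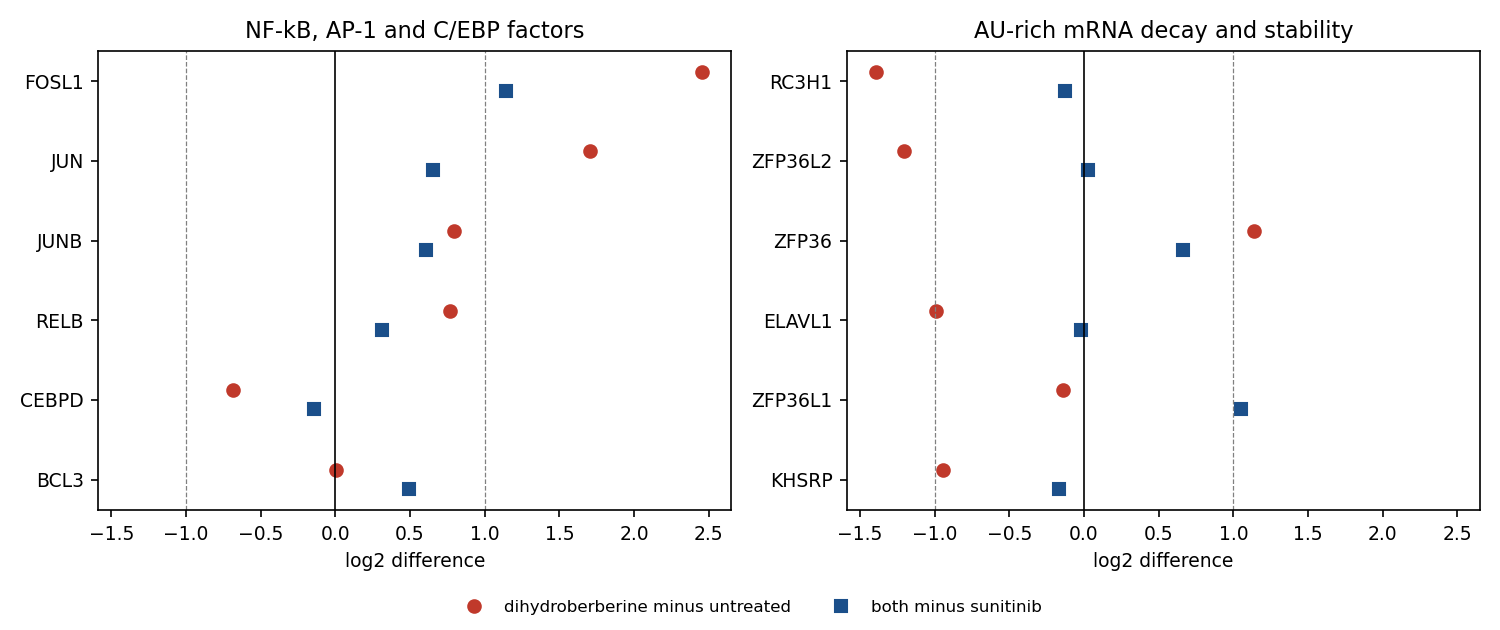
Log2 difference (horizontal axis) of named NF-kB, AP-1 and C/EBP factors (left) and genes of AU-rich mRNA decay and stability (right), for dihydroberberine minus untreated (circles) and both drugs minus sunitinib (squares); dashed lines mark 2-fold. FOSL1, JUN, JUNB, RELB and ZFP36 lie right of 0 in both and CEBPD lies left of 0 in both. RC3H1, ZFP36L2 and ELAVL1 lie near or past -1 for dihydroberberine minus untreated and near 0 for both drugs minus sunitinib.

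Of 16 other secreted or inflammatory genes 6 were measured. With dihydroberberine 1 was at least 2-fold higher than untreated, PTX3, at 2.05, and 0 were lower, beside 0.849% and 3.08% of all genes. IL6, interleukin 6, read 9.48 with the combination, 11.51 with dihydroberberine, 9.70 with sunitinib and 11.10 untreated. Like CXCL8 it was more than 2-fold lower with sunitinib than untreated, at -1.40, but unlike CXCL8 it stayed low with the combination, at -0.22 from sunitinib. LIF, a cytokine of the interleukin 6 family, was 0.36 above untreated with dihydroberberine and -0.69 with sunitinib, where its other probe set gave -0.21. TNFAIP2, a TNF-induced protein, was -0.28 and 0.24, and over its 5 probe sets it ran from -0.42 to -0.01 and from 0.05 to 0.43. CSF1 and CSF3, growth factors of macrophages and neutrophils, differed from untreated by at most 0.23 with either drug alone.

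The labelled cell line was read from 9 epithelial markers and A549 enzymes, of which 7 were measured and none passed 2-fold in any comparison. AKR1B10 and AKR1C3, aldo-keto reductases abundant in A549, read 14.30 to 14.67 and 14.31 to 14.50, and KRT18, a simple epithelial keratin, 14.17 to 14.39. EPCAM and CDH1 were dim on all 4 arrays.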

How the data were processed

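RNA of A549 cells was measured on 4 arrays, 1 per group, and groups were taken from the treatment labels. The deposited values are log2 probe set signals, made by the authors with Affymetrix Expression Console, as the submitters' processing notes name it. Version, summarization and normalization were not given in the sources used here, and the log2 scale was read from the values. An Agilent array is named in the series' design text and Cy3 in the labels, while the probe set names and the labelling kit are Affymetrix. GEO's platform annotation gave 1 symbol for 44988 of 49293 gene probe sets, several for 1832 and none for 2473. Matching to RefSeq by gene identifier updated 0 symbols. All 8 members were named, with up to 6 genes per list by size of difference and the 5 genes nearest to CXCL8 and to CXCL1. The members and lists were chosen with earlier results of these data known. No test was run, and precision is limited by the number of arrays. Counts were checked on simulated data in which the changed genes lay well above the floor. Alternatives were a floor at the 75th percentile, no filter, the mean of a gene's probe sets, quantile normalization, median centring and 1.5-fold. Python 3.11.15, pandas 2.3.3, numpy 2.4.6 and Biopython 1.88 were used, the last to align promoters globally. The NF-kB consensus was searched with degenerate letters.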

Additional observations from a re-analysis of the deposited data

Results flagged for a closer look

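In 3 chemokines all probe sets moved one way for a drug given alone and the opposite way for that drug given with the other. With 1 array per group these differences were not tested. For CXCL1 the dihydroberberine difference was -0.23 without sunitinib and 0.65 with it, and the sunitinib difference -0.56 without dihydroberberine and 0.32 with it, a gap of 0.88 for either drug. For CXCL3, whose probe sets share a source sequence, the dihydroberberine difference was 0.67 without sunitinib and -0.10 with it, a gap of -0.77. For CCL20, which had only 1 probe set, the sunitinib difference was 0.12 without dihydroberberine and -0.61 with it, a gap of -0.73. Every such gap uses all 4 arrays.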

How the results depend on the processing

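Of 180 gene values under the alternatives, 171 kept their sign and their side of 2-fold, 6 crossed 2-fold and 0 took the opposite sign. The other 3 were CXCL3 differences between sunitinib, combination and untreated cells, which became 0 with the floor at the 75th percentile, since CXCL3 was under it on those arrays. One of them is the negative difference of CXCL3 in the combination against sunitinib. The measured members lay above the main floor on every array, so with no filter their values could not change. With the floor at the 75th percentile only those of CXCL3 could. Median centring moved all members of a comparison by the same small amount. The 171 values therefore include many that were fixed in advance. With the mean of a gene's probe sets, 1 member passed 2-fold upward in the combination against untreated, 1 was lower in the combination against dihydroberberine (CXCL3, at -1.19), whose median was -0.69, and the departures from additivity of CXCL1 and CXCL3 were 1.01 and -1.01. With quantile normalization 2 members were at least 2-fold higher with dihydroberberine, and with median centring 1 was with the combination against untreated. At 1.5-fold, 5 members were higher with dihydroberberine, 3 higher in the combination against sunitinib and 3 lower in the combination against dihydroberberine. With no filter, which adds the dim CXCL6 and CCL2, the median was 0.086 for the combination against untreated, 0.32 against sunitinib and -0.44 against dihydroberberine, and that of the departure from additivity was 0.013, against -0.16 for the measured members. Over all genes, with the mean of probe sets, 45 were higher and 97 lower in the combination against untreated, where the main counts were 97 and 146, and 68 and 141 with dihydroberberine. No paired analysis was possible because each group held 1 array. The 1 array per group leaves the error between cultures unknown, and the spread between probe sets of a gene does not measure it.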

Other observations

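A pair of probe sets annotated to a chemokine and to another gene stood outside the rule. The one annotated to CXCL1 and CXCL2 read 12.65 with the combination, 12.18 with dihydroberberine, 11.94 with sunitinib and 12.39 untreated, which is the order of CXCL1 and not that of CXCL2. The one annotated to CXCL5 and GLYR1 read 11.98, 11.58, 11.28 and 11.33, highest with the combination as the CXCL5 probe sets were.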
